A study of Mus musculus with 24 samples.

Results

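The difference that EGCG (epigallocatechin gallate, the main green tea catechin) made to gene expression in differentiating brown fat cells was compared between day 4 (D4) and day 8 (D8). The cells were the 12 BAT libraries of a series of 24, and they were chosen by their labels alone. They fell into 4 groups of 3 libraries, which were D4 control, D4 EGCG, D8 control and D8 EGCG. The other 12 libraries were the same groups in cells of inguinal white adipose tissue (WAT).

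All cells started as the stromal vascular fraction (SVF) of 6-week-old C57BL/6 mice, taken by collagenase digestion from interscapular brown adipose tissue (BAT) in the groups described here. Every group, controls included, was grown to near confluence and received an induction medium with insulin, dexamethasone and 3-isobutyl-methylxanthine for 4 days. The D8 groups then had another 4 days in a differentiation medium with insulin and the thyroid hormone T3, so that D4 and D8 differ in the medium as well as in time, and these cannot be told apart. EGCG groups had EGCG in the medium, and control groups had its solvent DMSO. The labels give no dose. The SVF is a mixture that holds adipocyte precursors beside immune, vascular and other cells, and the labels do not say whether the replicates came from separate isolations, so the p-values measure only the spread between these samples.

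Brown adipocytes burn fat to make heat. They hold many mitochondria, and their uncoupling protein UCP1 lets the respiratory chain run without making ATP. In culture, precursors given a hormone cocktail switch on PPARG and the C/EBP factors within days, then fill with lipid and, in the brown lineage, turn on thermogenic genes. EGCG is a polyphenol with many reported actions on cultured cells, among them inhibition of adipocyte differentiation.

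The expression values were FPKM, the reads of a gene scaled by its length and by the reads in the library. Replicates 1 and 2 of the BAT groups held 39452696 to 52893848 reads on genes, and replicate 3 held 16803199 to 18146594. Replicate 3 was deposited in a table of its own that had been scaled separately, so it was used only for direction. Between replicates 1 and 2, the spread exceeded what read sampling gives, with a median squared difference per gene of 1.66 to 2.13 in units of sampling error against 0.455 for sampling alone. 1 WAT library, D8 EGCG replicate 3, stood apart with 61.0% of its reads in 5 genes, and no test used it.

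The question was which EGCG differences change between the days. For each of 14095 expressed genes, the D8 difference (EGCG minus control) minus the D4 difference was tested on the log2(FPKM + 1) scale with limma, and this quantity is called the interaction below. It differed from 0 at an adjusted p under 0.05 in 7803 genes (55.4%), higher on D8 in 4897 (34.7%) and lower in 2906 (20.6%). A change between the days was thus the common case. The median interaction of all genes was 0.13, which fell to 0.01 when libraries were scaled by the median ratio of their genes. The split then became 3535 higher against 3636 lower, and under quantile scaling it was 4457 against 3075. On D4 alone, 6838 genes (48.5%) were called, 3938 higher (27.9%) and 2900 lower (20.6%). On D8 alone, 10231 genes (72.6%) were called, 6549 higher (46.5%) and 3682 lower (26.1%). The sign of the interaction was the same in replicate 3 in 7492 of the 7803 called genes (96.0%), against 81.0% of all genes tested.

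**Figure D1:**
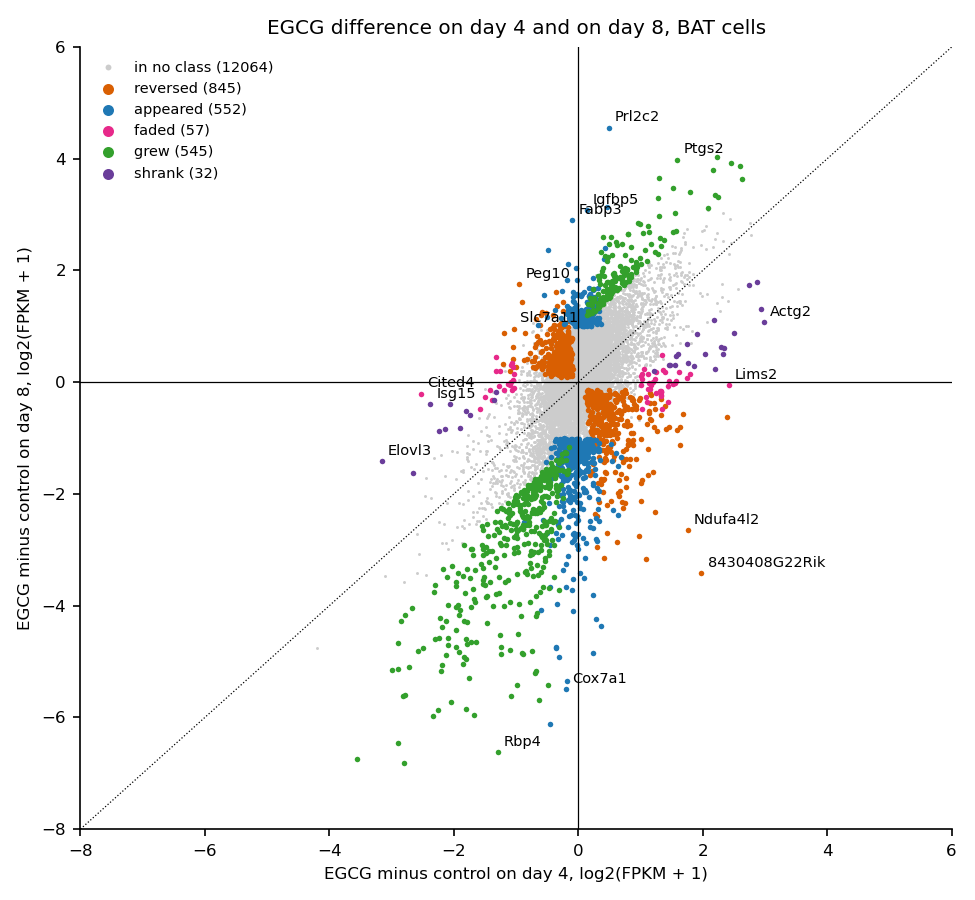
EGCG minus control on D4 (horizontal axis) against D8 (vertical axis), both on the log2(FPKM + 1) scale, in BAT cells; each point is 1 of 14095 genes, the dotted line marks equal differences, and colours mark the classes defined in the text. Reversed genes (845) fill the upper left and lower right, and genes that grew (545) reach far below the dotted line, with Rbp4 near a D8 difference of -6.62.

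Genes with a called interaction were sorted by what the EGCG difference did between the days. It reversed in 845 genes (6.00%), called on both days with opposite signs. Of these, 343 (2.43%) were higher with EGCG on D4 and lower on D8, and 502 (3.56%) went the other way. It appeared in 552 genes (3.92%), which were called at 2-fold or more on D8 and not called on D4. It faded in 57 genes (0.404%), called at 2-fold or more on D4 and not called on D8. In 545 genes (3.87%) it grew at least 2-fold in the same direction, and in 32 genes (0.227%) it shrank at least 2-fold. The sign of the interaction was the same in replicate 3 in 829 of 845 reversed, 524 of 552 appeared and 51 of 57 faded genes. It was also the same in 541 of 545 grown and 32 of 32 shrunken genes. Whether genes met the definition of their class in replicate 3 was not counted. A total of 587 reversed genes kept their class under median-ratio scaling. A reversal of at least 1.5-fold on both days was seen in 77 genes (0.546%), and 76 of them kept their class under that scaling. The interaction had the same sign in replicate 3 in 59 of the 61 that went from higher to lower. It did so in 13 of the 16 that went from lower to higher.

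The interaction can be read as the change from D4 to D8 in EGCG cells minus that in control cells, so the classes can also be described by which cells moved. Control cells changed at least 2-fold between the days in 1978 genes (14.0%) and EGCG cells in 1131 (8.02%). Among the 845 reversed genes, control cells alone moved 2-fold in 234 and EGCG cells alone in 56. Among the 61 genes that reversed from higher to lower by at least 1.5-fold on each day, the control level rose 2-fold in 42 and the EGCG level fell 2-fold in 20. In the 16 genes that reversed the other way, the control level fell 2-fold in 14. These comparisons use the same libraries as the EGCG differences, so the counts describe the classes and are no separate evidence for them.

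Hypoxia-inducible factor (HIF) target genes reversed from higher to lower. HIF is a transcription factor pair whose alpha subunit is destroyed when oxygen and iron let prolyl hydroxylases mark it, and its targets cover glycolysis, mitophagy and the hydroxylases themselves. Of the 20 targets listed, all of them tested, 15 were higher with EGCG on D4 and 2 lower, while on D8 2 were higher and 16 lower. The median difference moved from 0.52 on D4 to -1.06 on D8, against 0.03 and 0.17 over all genes. The interaction was called lower in 19 and higher in 0, with a median of -1.45, and 12 targets met the definition of a reversal. With median-ratio scaling 13 did, and leaving out single libraries gave 11 to 13. Over all genes, 27.9% were higher and 20.6% lower on D4, and 46.5% were higher and 26.1% lower on D8. The interaction was called lower in 20.6% of all genes, and 6.00% reversed. These bulk values cannot tell fewer cells of a type from less RNA per cell, here or in the gene groups that follow.

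The promoters of 3 of these genes are shown because they hold the letters ACGTG, the core of the hypoxia response element that HIF binds. The windows run from 250 bases before to 50 bases after the start of transcription in RefSeq on GRCm38.p6, and capitals mark the core on either strand. In Bnip3 the matches on both strands overlap within CACGTG, which is also the E-box that other factors bind.
Egln3, chr12:54203825-54204124, minus strand: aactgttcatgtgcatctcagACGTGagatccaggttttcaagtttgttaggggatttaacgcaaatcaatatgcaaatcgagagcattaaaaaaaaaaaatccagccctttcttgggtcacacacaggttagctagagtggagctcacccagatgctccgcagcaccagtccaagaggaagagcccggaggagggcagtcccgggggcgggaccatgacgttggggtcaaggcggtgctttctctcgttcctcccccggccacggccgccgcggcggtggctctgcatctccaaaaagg
Bnip3, chr7:138909457-138909756, minus strand: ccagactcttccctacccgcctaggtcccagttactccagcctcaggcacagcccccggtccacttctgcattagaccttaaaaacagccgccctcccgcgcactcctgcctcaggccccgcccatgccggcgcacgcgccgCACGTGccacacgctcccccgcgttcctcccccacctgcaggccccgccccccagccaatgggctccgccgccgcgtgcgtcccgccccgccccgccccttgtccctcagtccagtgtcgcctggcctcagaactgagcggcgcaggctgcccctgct
Pgk1, chrX:106186850-106187149, plus strand: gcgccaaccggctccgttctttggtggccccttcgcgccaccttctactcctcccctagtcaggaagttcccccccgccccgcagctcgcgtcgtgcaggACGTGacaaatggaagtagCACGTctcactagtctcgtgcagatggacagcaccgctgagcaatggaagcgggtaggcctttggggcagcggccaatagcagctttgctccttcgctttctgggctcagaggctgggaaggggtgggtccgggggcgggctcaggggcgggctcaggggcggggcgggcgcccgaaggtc
Of the 20 targets, 19 had at least 1 window, and Ndufa4l2 had none. The core was present in 16 of their 27 windows (59.3%) and in at least 1 window of 14 of the 19 genes, against 6447 of all 32851 windows (19.6%). A match describes the letters and not a bound site. Pdk1, Eno1, Tpi1 and Adm reversed although these letters were not in their windows.

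Egln3, the prolyl hydroxylase PHD3 that marks HIF for destruction and is itself a HIF target, lies on chromosome 12 from 55279968 to 55304847 in NCBIM37. Its FPKM in replicates 1, 2 and 3 was 4.02, 3.58 and 4.63 in D4 control cells and 9.0, 9.38 and 9.90 in D4 EGCG cells. On D8 it was 83.0, 84.8 and 79.5 in control cells and 9.26, 7.73 and 9.97 with EGCG. The groups did not overlap on either day. EGCG cells stayed near 9 FPKM on both days while the control level rose over them, and the interaction was -4.25 ± 0.13 (SE, adjusted p = 2.09e-09).

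Bnip3, a mitophagy receptor of the outer mitochondrial membrane, lies on chromosome 7 from 146082519 to 146101202. It stood at 100, 106 and 117 FPKM in D4 control cells and at 137, 139 and 136 with EGCG. On D8 the control libraries read 657, 671 and 599 and the EGCG libraries 80.3, 68.9 and 79.9. A small excess with EGCG thus became a deficit, with differences of 0.42 on D4 (adjusted p = 0.0164) and -3.14 on D8.

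Ndufa4l2 (chromosome 10, 126951995 to 126954208), a HIF-induced protein that lowers complex I activity, had the interaction of largest size in the list, -4.40 ± 0.22. Its D4 levels were 38.1, 24.7 and 36.3 FPKM in control cells and 107, 105 and 134 with EGCG. Its D8 levels were 290.0, 312 and 330.2 FPKM in control cells and 50.3, 44.5 and 62.6 with EGCG. EGCG cells fell by 1.15 on the log2 scale between the days while control cells rose by 3.25, so here both moved. Adm, the vasodilator peptide adrenomedullin, differed in that both levels rose. Its means were 26.3 ± 1.0 and 80.9 ± 0.97 FPKM on D4 and 289 ± 4.4 and 159 ± 1.1 on D8, control first (SD, n = 2).

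The glycolytic genes followed. Pgk1, the ATP-making phosphoglycerate kinase, went from 0.88 on D4 to -1.13 on D8, and Ldha, which reduces pyruvate to lactate, from 0.51 to -0.95. Tpi1, Eno1 and Hk2 reversed as well, with interactions of -1.39, -1.01 and -1.13. Pdk1, the kinase that closes pyruvate dehydrogenase, went from 0.52 to -2.12. Of the 8 targets that did not reverse, Slc2a1, the basal glucose transporter, was higher with EGCG on both days (1.30 and 0.69), as was Pfkfb4 (0.73 and 0.38). The collagen hydroxylase P4ha1 was higher on D4 alone (0.38 and 0.01). The glycolytic genes Aldoa (-0.17 and -1.60) and Pfkfb3 (-0.51 and -2.68) were lower on both days and grew. Ankrd37 appeared as lower (-1.10). Vegfa, the angiogenic ligand, appeared as lower on D8 with means of 224 FPKM in control and 87.2 in EGCG cells, after 115 and 113 on D4. Car9 was not called for EGCG on either day or for the interaction.

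**Figure D2:**
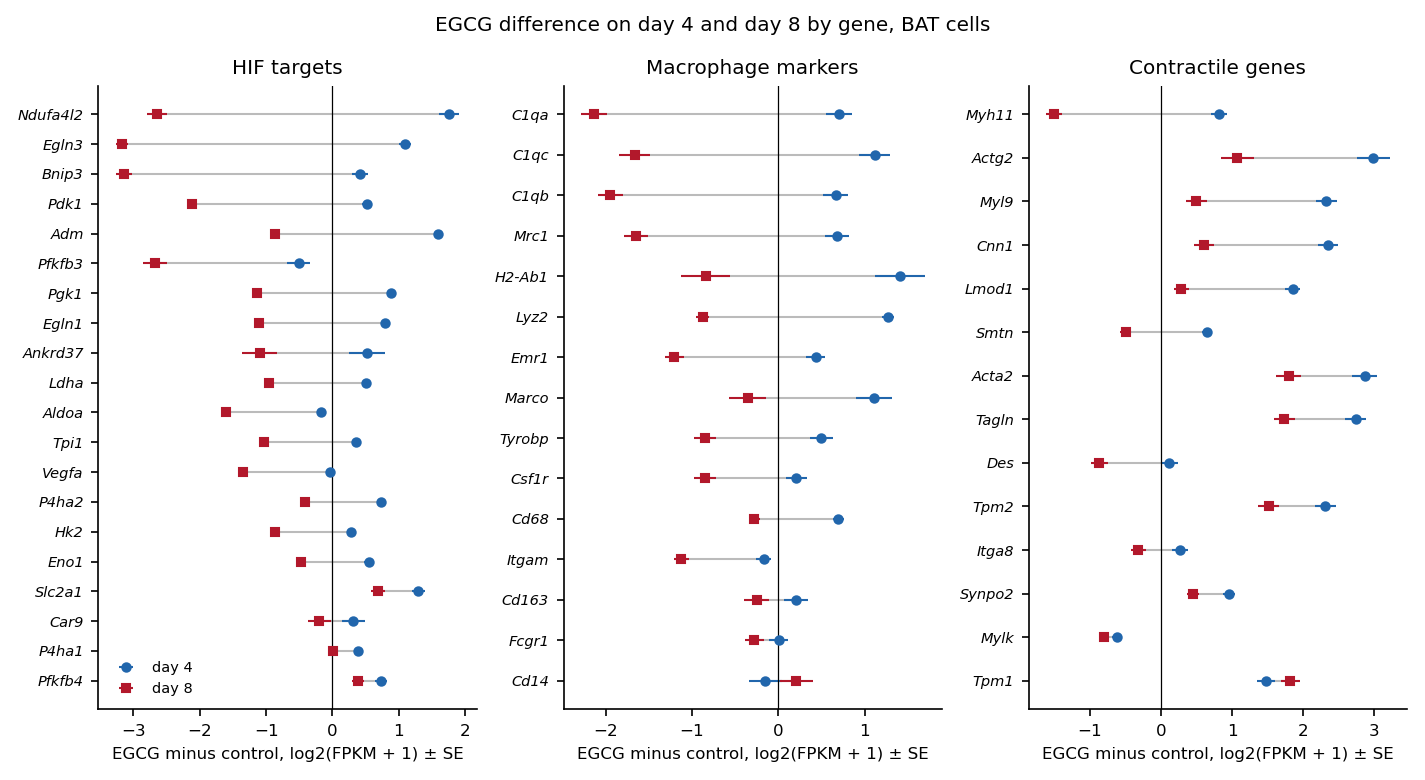
EGCG minus control on the log2(FPKM + 1) scale with its standard error on D4 (circles) and D8 (squares) for the tested HIF targets (20), macrophage markers (15) and contractile genes (14), ordered by the interaction. Most HIF targets and macrophage markers cross the zero line from right to left, while most contractile genes move left and stay above it.

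Cox4i2, the hypoxia-induced isoform of a cytochrome oxidase subunit, and 8430408G22Rik, which RefSeq names Depp1, were with Ndufa4l2 and Ampd3 the 4 genes named for a reversal from higher to lower. 8430408G22Rik (chromosome 6, 116600702 to 116602865) had 2.98, 4.32 and 3.93 FPKM in D4 control cells and 17.6, 16.7 and 18.0 with EGCG. On D8 control cells had 27.9, 32.9 and 30.5 and EGCG cells 2.03, 1.82 and 4.27. Its levels in the 2 treatments changed places between the days, and the interaction of -5.40 ± 0.27 (adjusted p = 5.69e-08) was the largest in size of the 8 named reversed genes. Cox4i2 had means of 0.54 and 2.62 FPKM on D4 and 15.6 and 2.31 on D8, control first. Its EGCG level was called neither higher nor lower on D8 than on D4 (-0.13, adjusted p = 0.238), whereas the control level rose by 3.43. Ampd3, an AMP deaminase, rose in both, by 3.08 in control cells and 0.33 in EGCG cells, and went from a difference of 1.64 to -1.12. Ndufa4l2 overlaps Shmt2 on the other strand, 8430408G22Rik overlaps Rassf4 and Ampd3 overlaps B430319F04Rik and Gm15548, and reads of such pairs cannot be told apart without strand.

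**Figure D3:**
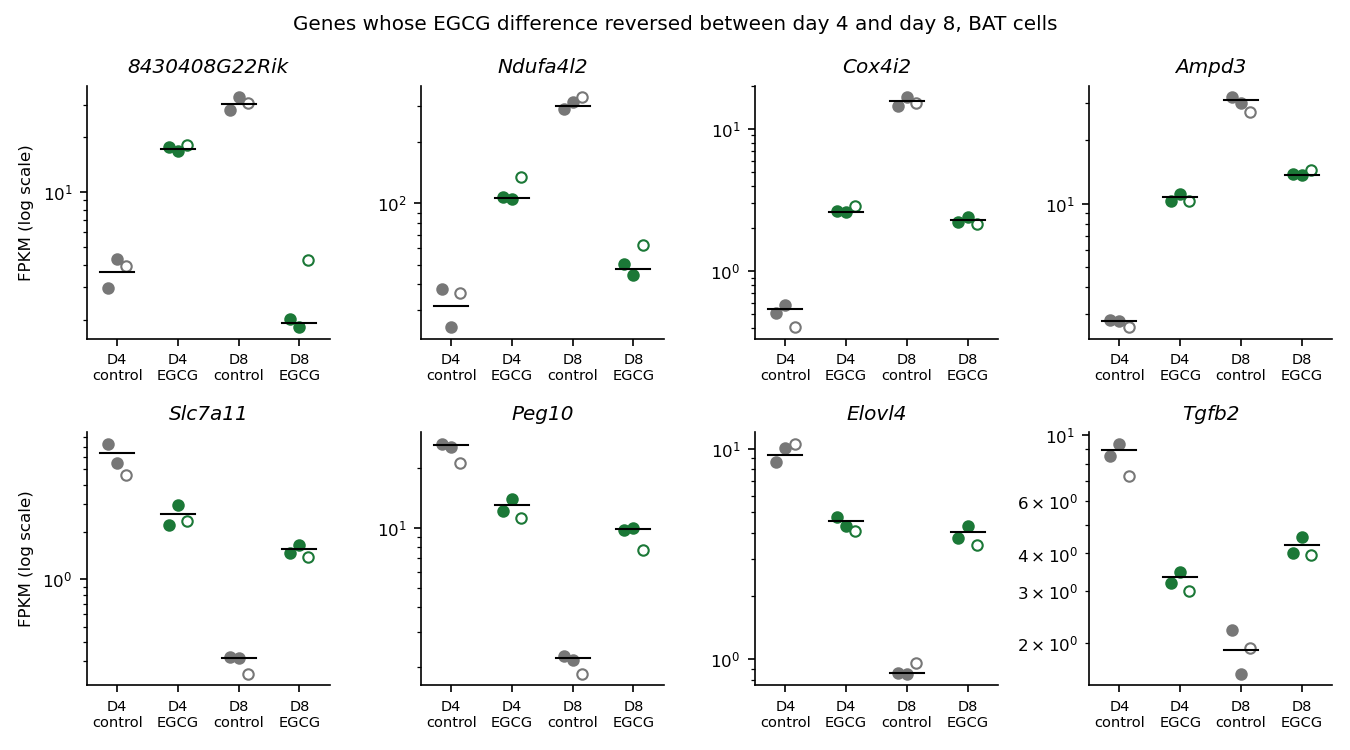
FPKM on a log axis of 8 named genes whose EGCG difference reversed, in the 4 BAT groups; filled points are replicates 1 and 2, open points replicate 3 from the second table, and the line is the mean of replicates 1 and 2. In the upper row the D8 control level is the highest of the 4 groups, and in the lower row it is the lowest.

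A smaller set reversed in the other direction, from lower to higher with EGCG. Slc7a11 (chromosome 3, 50168858 to 50247535), the cystine importer xCT that feeds glutathione synthesis, had 7.27, 5.48 and 4.60 FPKM in D4 control cells and 2.22, 2.98 and 2.34 with EGCG. On D8 it had 0.319, 0.316 and 0.251 FPKM in control cells and 1.46, 1.66 and 1.39 with EGCG. Both levels fell between the days, the control level by 2.47 and the EGCG level by 0.48 on the log2 scale, and the interaction was 1.99 ± 0.19 (adjusted p = 6.01e-06). Peg10, an imprinted gene derived from a retrotransposon, went from a difference of -0.94 to 1.75. Its means were 25.9 and 13.0 FPKM on D4 and 2.21 and 9.83 on D8. Elovl4, which elongates very long chain fatty acids, went from -0.91 to 1.44, and its EGCG level did not differ between days at the threshold (-0.13, adjusted p = 0.446). The cytokine Tgfb2 went from -1.20 to 0.88 while its EGCG level rose by 0.29. In all 4 genes the 3 EGCG libraries lay below the 3 control libraries on D4 and above them on D8. These genes were named for the size of their smaller difference, so this separation follows largely from the choice. The share of all genes with such a separation was not counted. The same signs in replicate 3 were a condition for naming these genes, so that replicate is no separate evidence for them.

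Metallothioneins and several glucocorticoid-induced genes also reversed. Metallothioneins bind zinc and copper and are switched on by the metal sensor MTF1 and by glucocorticoids, one of which, dexamethasone, was in the medium until D4. The promoters of Mt1 and Mt2 are shown because they hold the metal response element core, TGCACNC or TGCGCNC, in capitals on either strand, in 3 places in Mt1 and 4 in Mt2. At least 1 such core was present in 8444 of all 32851 windows (25.7%).
Mt1, chr8:94178839-94179138, plus strand: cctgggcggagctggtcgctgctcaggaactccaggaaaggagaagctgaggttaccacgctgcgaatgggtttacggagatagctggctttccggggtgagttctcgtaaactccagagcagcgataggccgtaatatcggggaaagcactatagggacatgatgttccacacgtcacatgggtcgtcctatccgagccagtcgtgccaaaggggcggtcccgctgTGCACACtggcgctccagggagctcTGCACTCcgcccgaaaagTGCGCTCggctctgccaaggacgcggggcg
Mt2, chr8:94172368-94172667, plus strand: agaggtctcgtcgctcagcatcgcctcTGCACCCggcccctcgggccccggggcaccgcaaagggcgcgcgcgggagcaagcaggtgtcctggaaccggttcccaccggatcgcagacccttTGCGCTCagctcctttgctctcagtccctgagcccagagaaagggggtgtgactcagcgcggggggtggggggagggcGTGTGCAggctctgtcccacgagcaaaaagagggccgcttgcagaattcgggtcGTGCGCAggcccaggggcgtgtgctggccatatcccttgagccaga
Mt1 (chromosome 8, 96702989 to 96704225) had means of 1453 ± 131 FPKM in D4 control cells and 2938 ± 289.9 with EGCG, then 2503 ± 99.9 in D8 control cells and 719.9 ± 113 with EGCG (SD, n = 2). The control level rose and the EGCG level fell between the days. Mt2 went from 1.01 to -2.13, with an interaction of -3.14 ± 0.20. Mt1 and Mt2 are close paralogs whose reads may be shared.

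Over the 14 genes of that list, 7 were higher and 4 lower on D4, 2 were higher and 12 lower on D8, and the interaction was called lower in all 14, with a median of -1.76. The reversed members were Mt1, Mt2, Angptl4, Per1 and Errfi1. Over all genes, 27.9% were higher and 20.6% lower on D4, and 46.5% were higher and 26.1% lower on D8. The interaction was called lower in 20.6% of all genes, and 6.00% reversed. The 4 members lower on D4 thus lay not far from the share over all genes. Angptl4, an inhibitor of lipoprotein lipase, went from 0.30 to -2.95. Pdk4, which closes pyruvate dehydrogenase in fasting, had means of 13.8 and 14.7 FPKM on D4 and 71.0 and 5.35 on D8, so that its difference appeared on D8 (-3.50). Fkbp5 and Tsc22d3, direct targets of the glucocorticoid receptor, also appeared as lower, at -2.51 and -1.83. The members higher with EGCG on both days were Sgk1, a kinase induced by glucocorticoids, whose difference shrank from 1.91 to 0.86, and the phosphatase gene Dusp1 (1.21 and 0.47).

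Markers of macrophages reversed in the same direction as HIF targets. Of 19 markers 15 were expressed enough to be tested, and 10 were higher with EGCG on D4 and 0 lower, while 0 were higher and 12 lower on D8. The interaction was called lower in 12, with a median of -1.47, and 9 reversed. Over all genes, 27.9% were higher and 20.6% lower on D4, and 46.5% were higher and 26.1% lower on D8. The interaction was called lower in 20.6% of all genes, and 6.00% reversed. Lyz2, lysozyme, had 142, 133 and 154 FPKM in D4 control cells and 355, 314 and 382 with EGCG. On D8 it had 83.6, 84.8 and 92.4 FPKM in control cells and 45.1, 45.6 and 44.1 with EGCG. The complement genes C1qa, C1qb and C1qc, the mannose receptor Mrc1 and Emr1, which encodes F4/80, had the same pattern, with interactions of -2.84, -2.61, -2.78, -2.33 and -1.64. Marco, a scavenger receptor, faded from 1.11 to -0.36, and Itgam, an integrin of myeloid cells, appeared as lower (-1.12). Cd14 did not pass the test on either day. The level summed over the 19 markers was 212 to 239 FPKM in D4 control, 451 to 542 in D4 EGCG, 164 to 183 in D8 control and 73.7 to 76.0 in D8 EGCG libraries. Lyz2 alone made up a large part of each of these sums. The marker H2-Aa was at 0 in the 3 D4 EGCG libraries. The part of these markers in the HIF target and metallothionein results was not tested.

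Of 17 thermogenic genes tested, 11 were lower with EGCG on D4 and 1 higher, while on D8 15 were lower and 2 higher, with medians of -0.54 and -1.50. The median change of control cells from D4 to D8 was 0.38, with some members rising steeply (Cox7a1, Ucp1) and Elovl3 falling. The level summed over 20 such genes was 97.9 to 106 FPKM in D4 control, 52.6 to 57.8 in D4 EGCG, 446 to 488 in D8 control and 49.0 to 52.8 in D8 EGCG libraries. Cox7a1 alone made up a large part of the D8 control sums, at 176 to 191 FPKM. The interaction was called lower in 11 of the 17 and higher in 4, with a median of -0.69. Over all genes it was called lower in 20.6% and higher in 34.7%. The share of all genes lower with EGCG was 20.6% on D4 and 26.1% on D8. Ucp1 (chromosome 8, 85814247 to 85822355) was at 0.423, 0.243 and 0.217 FPKM in D4 control cells and at 0.0139, 0.0247 and 0.101 with EGCG. On D8 it had 6.97, 6.15 and 4.20 FPKM in control cells and no read in any of the 3 EGCG libraries. With a floor of 3 reads per library, the mean of D8 control replicates 1 and 2 was at least 168-fold higher than in D8 EGCG replicates 1 and 2. On D4 the Ucp1 groups did not overlap either, at a difference of -0.38 (adjusted p = 0.011).

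Cox7a1 (chromosome 7, 30969190 to 30971047), the cytochrome oxidase isoform of brown fat and muscle, appeared most sharply in this list. Its D4 FPKM was 2.87, 3.54 and 3.43 in control cells and 2.63, 2.67 and 3.18 with EGCG, which overlap. On D8 it was 191, 190 and 176 in control cells and 2.87, 3.64 and 4.30 with EGCG. The interaction was -5.30 ± 0.21 (adjusted p = 1.05e-08). Cidea, a lipid droplet protein, appeared as well, with means of 11.0 and 0.050 FPKM on D8, and Cox8b, another oxidase isoform, grew from -0.90 to -4.84. Adrb3, the beta3 adrenoceptor, and the potassium channel Kcnk3 grew to -4.19 and -4.88. Dio2, the deiodinase that makes active thyroid hormone, reversed from 0.72 to -1.43, with means of 2.99 and 5.57 FPKM on D4 and 2.37 and 0.25 on D8.

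The 4 members with a higher interaction were Fabp3, Elovl3 and the transcription factors Zic1 (0.85) and Ebf2 (0.30). Fabp3, a fatty acid binding protein of oxidative tissue, appeared as higher, with 0.936, 1.13 and 0.868 FPKM in D4 control cells, 1.47, 0.468 and 1.21 in D4 EGCG cells, 0.366, 0.493 and 0.550 in D8 control cells and 9.44, 9.97 and 10.5 in D8 EGCG cells. Elovl3, an elongase of brown fat, was lower with EGCG on both days, and its difference shrank from -3.16 to -1.41 as its control level fell from 11.6 to 1.74 FPKM. Its D8 EGCG libraries held at most 1 read, so the D8 value is set by the pseudocount, and with a pseudocount of 0.1 the interaction was not called (0.68, adjusted p = 0.373).

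The genes that encode the adipocyte's own machinery were already lower with EGCG on D4 and much lower on D8. Of 22 mature adipocyte genes, 21 were lower on D4 and 21 on D8, with medians of -2.05 and -4.40, and the difference grew in 17. Over all genes, 20.6% were lower on D4 and 26.1% on D8, and the difference grew in 3.87%. The summed level of the 22 genes was 8649 to 11082 FPKM in D4 control and 14956 to 15665 in D8 control libraries. With EGCG it was 1900 to 2005 on D4 and 739 to 764 on D8. Fabp4, the lipid carrier that marks adipocytes, had means of 998 ± 6.9 FPKM in D4 EGCG and 224 ± 1.1 in D8 EGCG cells (SD, n = 2). Lep, the hormone leptin, was at most 1.19 FPKM in any library of 3 groups and reached 57.1, 58.4 and 59.8 FPKM in D8 control cells, with an interaction of -4.94 ± 0.09. Car3 and Cav1 were lower to a like degree on both days, at -4.20 and -4.76 and at -1.50 and -1.44, and their interactions were not called (adjusted p = 0.0578 and 0.801).

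The transcription factors that drive these genes were all lower with EGCG on D8 and split only in the change between the days. Of 13, 2 were higher and 10 lower on D4, and 0 were higher and 13 lower on D8. The interaction was called lower in 10 and higher in 1, with a median of -1.11. Over all genes it was called lower in 20.6%. Pparg, the master regulator, grew from -1.75 to -3.51 and Cebpa from -1.72 to -2.98. Cebpb and Cebpd, the early factors that act before Pparg, reversed instead, from 0.56 to -0.75 and from 0.31 to -0.90. Ebf1 and Zfp423, which mark committed precursors, had interactions of -0.03 and 0.03 that were not called. For lipogenesis, all 13 interactions were called lower, with a median of -2.37. The difference grew in 10, among them Fasn, Scd1 and Thrsp, and appeared in Acly, Elovl6 and Elovl5. The secreted proteins Rbp4, the retinol carrier, and Rarres2, chemerin, grew most among named genes. Rbp4 had 34.5, 41.8 and 56.7 FPKM in D4 control cells, 14.1, 15.7 and 19.6 in D4 EGCG cells, 298, 309 and 326 in D8 control cells and 2.01, 2.17 and 2.42 in D8 EGCG cells.

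**Figure D4:**
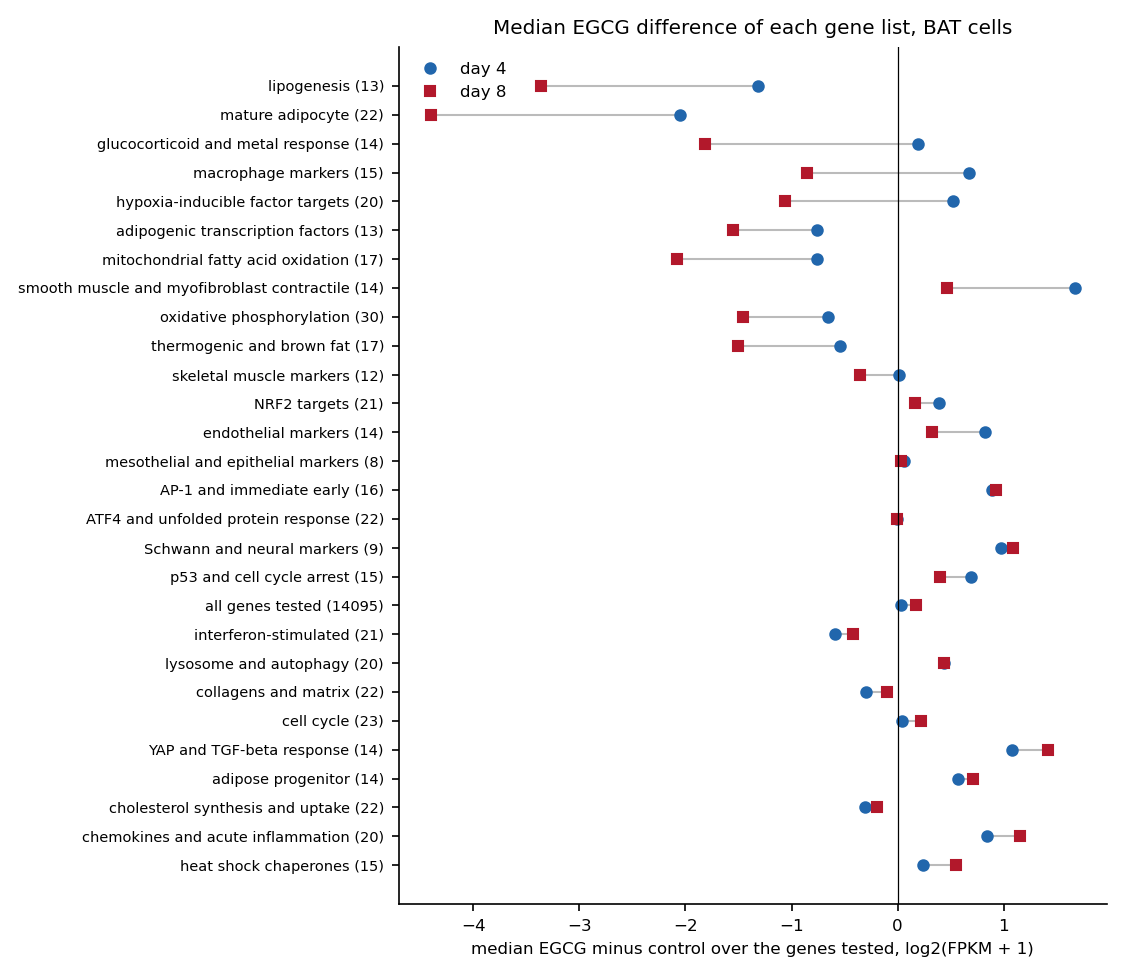
Median EGCG minus control on the log2(FPKM + 1) scale on D4 (circles) and D8 (squares) over the tested genes of each list, with the number tested in brackets and the lists ordered by their median interaction. Lipogenesis (-1.32 to -3.36) and mature adipocyte genes (-2.05 to -4.40) move furthest left, and macrophage markers and HIF targets cross zero.

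Outside the lists, the other genes named for an appearing difference were Aspg, Selenbp1 and A2m, which became lower, and Prl2c2, Igfbp5 and Hist1h4n, which became higher. On D4 Prl2c2 (0.49, adjusted p = 0.0552) and Hist1h4n (-0.49, adjusted p = 0.0612) fell just short of a call, so a D4 difference was not absent. Aspg, an asparaginase on chromosome 12 from 113344894 to 113365784, had 85.3, 87.0 and 75.4 FPKM in D8 control cells. It had at most 1.03 FPKM in every library of the other 3 groups. Its D4 libraries did not overlap, at 0.619, 1.03 and 0.958 FPKM in control and 0.267, 0.386 and 0.161 in EGCG cells. That D4 difference was not called (-0.45, adjusted p = 0.111). Selenbp1, a selenium-binding protein, went from -0.18 on D4 to -5.36 on D8, with control cells rising by 3.47 and EGCG cells falling by 1.70. The protease inhibitor A2m had means of 18.6 ± 6.5 and 21.5 ± 0.88 FPKM on D4, which overlap, and of 48.0 ± 0.075 and 0.71 ± 0.23 on D8 (SD, n = 2, control first). Igfbp5, a binding protein of insulin-like growth factors, had 31.9, 23.9 and 24.3 FPKM in D8 control cells and 254, 227 and 187 with EGCG, after means of 55.6 and 61.0 on D4. Prl2c2, proliferin, fell from a mean of 42.2 to 0.29 FPKM in control cells and from 59.4 to 29.3 in EGCG cells. Its paralog Prl2c3 grew from 1.30 to 3.66, and reads of this family may be split between its members. Hist1h4n is 1 of several near-identical histone H4 genes, so its interaction of 2.85 ± 0.28 is uncertain in the same way.

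Of the 552 appearing differences, 380 had a lower interaction and 172 a higher one. In 243 of the 380, control cells rose at least 2-fold between the days, and in 38 EGCG cells fell at least 2-fold. In the 172, the control level fell 2-fold in 53 and the EGCG level rose 2-fold in 41. Over all genes tested, control cells changed at least 2-fold in 14.0% and EGCG cells in 8.02%. The counts use the same libraries as the class definition, so they describe the class and are no separate evidence. They cover only members that passed the filter on low values, which a gene may pass through the group where it is high.

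Differences that faded were few. Cited4, a co-activator of p300, had 9.47, 11.2 and 14.9 FPKM in D4 control cells and 0.960, 0.967 and 0.964 with EGCG, then 0.564, 0.665 and 1.03 against 0.492, 0.316 and 0.599 on D8. The D8 groups overlapped, the control level having fallen to that of EGCG cells. The adaptor Bcar3 and the sulfatase Arsi faded likewise, from -1.33 and -1.33 to 0.21 and 0.46. Lims2, an adaptor of focal adhesions, faded from the other side. It had 1.43, 1.05 and 1.90 FPKM in D4 control and 11.0, 10.9 and 10.6 in D4 EGCG cells, and 24.2, 23.4 and 30.4 against 22.4, 23.5 and 30.3 on D8. Parm1 and Cox6b2, an oxidase subunit best known from testis, faded by a fall of the EGCG level, from means of 26.2 to 13.4 FPKM and from 30.7 to 9.25, while their control means moved from 7.06 to 12.6 and from 8.14 to 8.26. Lims2 overlaps Gpr17 on the other strand and Parm1 overlaps Gm15710, as Fabp3 does Zcchc17 and Gm10570, Elovl3 does Pitx3, Rarres2 does Lrrc61 and Tgfb2 does SNORA70, with the same limit on telling their reads apart.

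**Figure D5:**
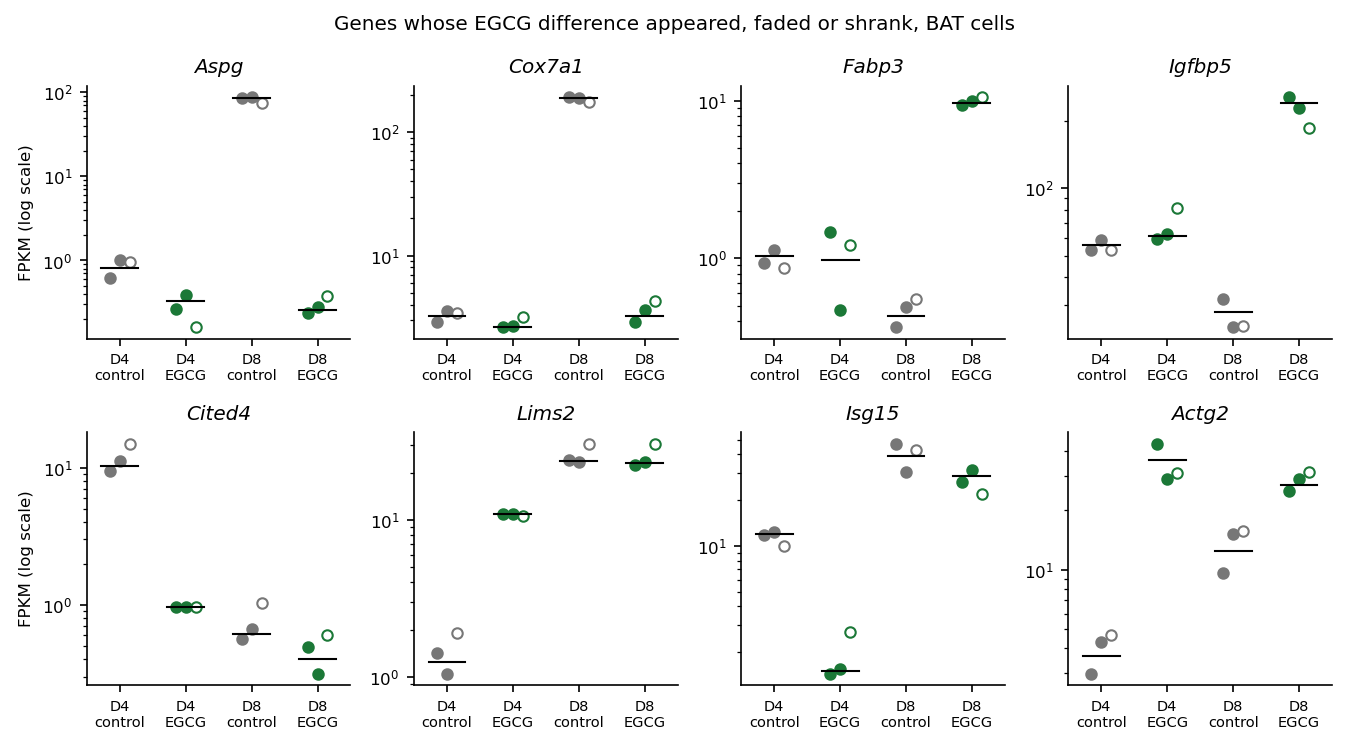
FPKM on a log axis of 8 genes whose EGCG difference appeared (Aspg, Cox7a1, Fabp3, Igfbp5), faded (Cited4, Lims2) or shrank (Isg15, Actg2) in BAT cells; filled points are replicates 1 and 2, open points replicate 3, and the line is the mean of replicates 1 and 2. Aspg and Cox7a1 stand high in D8 control cells alone, and Fabp3 and Igfbp5 in D8 EGCG cells alone.

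Most contractile genes of smooth muscle and myofibroblasts were higher with EGCG, by less on D8 than on D4. Of 14, 11 were higher and 1 lower on D4, and 9 were higher and 5 lower on D8. The medians were 1.67 and 0.47, and the interaction was called lower in 12 and higher in 0, with a median of -1.03. Over all genes, 27.9% were higher and 20.6% lower on D4, and 46.5% were higher and 26.1% lower on D8. The interaction was called lower in 20.6% of all genes. With median-ratio scaling 7 instead of 9 contractile genes were higher on D8 and 5 lower, against 5100 and 4741 of all 14095 genes. The D8 counts thus lay nearer to the shares over all genes than the D4 counts. Actg2, an enteric actin, had 2.98, 4.30 and 4.69 FPKM in D4 control, 43.4, 28.8 and 31.0 in D4 EGCG, 9.69, 15.2 and 15.7 in D8 control and 25.0, 28.8 and 31.4 in D8 EGCG cells. Cnn1, calponin, and the light chain Myl9 shrank from 2.34 to 0.60 and from 2.33 to 0.50. Acta2, alpha smooth muscle actin, rose in both treatments, from means of 54.3 to 229 FPKM in control and 402 to 798 in EGCG cells, and shrank from 2.87 to 1.80. Actin paralogs share sequence, and reads may be split between them. Myh11, the smooth muscle myosin, reversed from 0.82 to -1.50.

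Several inflammatory ligands and enzymes had a larger EGCG difference on D8. Of 20, the interaction was called higher in 10 and lower in 3, with a median of 0.56. Ptgs2, the inducible cyclooxygenase, had 2.02, 1.96 and 1.82 FPKM in D4 control, 8.27, 7.71 and 5.05 in D4 EGCG, 0.716, 1.35 and 1.23 in D8 control and 29.5, 32.0 and 24.1 in D8 EGCG cells, and grew from 1.59 to 3.98. Il6, Ccl7, Ch25h and the interleukin-33 receptor Il1rl1 grew too, and the chemokines Ccl8 and Ccl11 appeared, at 3.14 and 1.30. Cxcl2, a neutrophil chemokine, faded from 1.57 to 0.02, and the acute phase protein Lcn2 grew downward, from -1.84 to -4.92. Of 21 interferon-stimulated genes, 15 were lower with EGCG on D4 and 14 on D8, with 8 interactions called higher (5 under median-ratio scaling) and 0 lower. That share called higher lay near the 34.7% of all genes. Isg15, a ubiquitin-like protein, had 11.8, 12.3 and 9.92 FPKM in D4 control and 1.45, 1.56 and 2.70 in D4 EGCG cells, and its difference shrank from -2.38 to -0.39 as both levels rose. The D8 libraries overlapped, at 46.9, 30.8 and 42.9 FPKM in control and 26.3, 31.4 and 22 in EGCG cells.

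Cholesterol synthesis genes had a median change from D4 to D8 of -0.70 in control cells and -0.41 in EGCG cells. The interaction was called higher in 13 of 22 and lower in 3, or in 10 and 5 under median-ratio scaling. Srebf2, the factor that drives the pathway, appeared as higher, from 0.10 on D4 to 1.01 on D8, with means of 37.1 and 39.7 FPKM on D4 and 18.3 and 37.9 on D8, control first. Heat shock chaperones had 11 interactions called higher and 2 lower among 15, with a median of 0.58. Hspa1b, an inducible HSP70, grew from 0.35 to 1.49, while the small chaperones Hspb1 and Cryab ran the other way and faded or shrank. Among 21 targets of the antioxidant factor NRF2, 6 interactions were called higher and 13 lower, with a median of -0.41. Over all genes 20.6% were called lower. Against that majority, Nqo1 and Txnrd1 had larger EGCG differences on D8 (1.45 and 1.51) than on D4 (0.88 and 0.60). Fth1, the ferritin heavy chain, went with the majority and reversed from 0.39 to -0.54. Of 23 cell cycle genes, 10 interactions were called higher and 0 lower, with a median of 0.33. Under median-ratio scaling 7 were called higher, against 3535 of all 14095 genes, and neither share stood far from that of all genes (34.7% without that scaling).

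The same interaction in WAT cells was then subtracted to ask what differed between the depots. This difference was called in 3283 genes (23.3%), 1724 higher in BAT (12.2%) and 1559 lower (11.1%). Among the lists, the clearest split was in the mitochondrial ones. All 30 listed oxidative phosphorylation genes had a lower interaction in BAT than in WAT, with a median difference of -0.82. Their median interaction was -0.75 in BAT and 0.12 in WAT cells. The list leaves out other subunits, and these were mixed in BAT cells. Atp5g1 reversed from -0.55 to 0.36, Ndufb2 had an interaction of 0.33 that was not called, and Ndufa1 appeared as lower (-1.28). Control BAT cells raised the 30 listed genes by a median of 0.78 from D4 to D8 and EGCG cells by 0.00. Sdha, a subunit of complex II, had means of 154 and 93.6 FPKM on D4 and 355 and 83.2 on D8, with interactions of -1.37 in BAT and -0.20 in WAT cells. In fatty acid oxidation 16 of 17 genes were called lower in BAT than in WAT. Cpt1a, which admits fatty acids to mitochondria, was the member not called in that comparison (-0.24, adjusted p = 0.458) and was higher with EGCG on both days, at 0.51 and 1.26. Contractile genes (10 of 14) and the glucocorticoid and metal list (11 of 14) were also called lower in BAT, with median interactions of 0.20 and -0.43 in WAT cells. For HIF targets the difference between depots was called lower in 7 of 20 and higher in 2, and the WAT median of -1.22 lay near that of BAT. For macrophage markers it was called higher in 6 of 15 and lower in 1, with a WAT median of -1.97.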

How the data were processed

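RNA sequencing measured gene expression in 24 libraries, of which the 12 BAT libraries are described. The authors deposited FPKM values, scaled by gene length and by the reads assigned to genes, in 2 tables made separately, with replicates 1 and 2 in the first and replicate 3 in the second. The submitters' processing notes name FastQC 0.11.9, HISAT2 2.2.0, HTSeq 0.11 and the build mm9. Whether counting used the strand is not given in the sources used here. All 37310 gene IDs were found in GENCODE vM1 on NCBIM37, which gave names and coordinates. FPKM times length gave whole reads at a tolerance of 0.01 in every library. A floor of 3 reads covers counting error only.

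Genes with FPKM of at least 1 in at least 2 of the 16 libraries of the first table were tested (14095). Log2(FPKM + 1) was fitted with 1 mean for each of 8 groups in limma 3.58.1 (R 4.3.3; 8 residual degrees of freedom, eBayes with a trend). Tests were two-sided, with Benjamini-Hochberg adjustment over all genes tested, and calls were made below an adjusted p of 0.05. This scale understates changes of low genes. Replicates 1 and 2 entered the fit and gave means and SDs.

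Named genes were protein coding, had a mean FPKM of at least 5 in 1 BAT group and kept their class under median-ratio scaling. Named genes also had the same sign of the interaction in replicate 3, and reversed ones the same sign of both EGCG differences. They were the 4 reversed genes in each direction with the highest smaller difference of the 2 days, and, by size of the interaction in each direction, 4 that appeared, 3 that faded, 2 that grew and 2 that shrank. Members of 28 gene lists (502 entries, 501 matched, 2 by another name) may be named besides. The members, lists and tests were chosen with earlier results of these data known. The fit was also run on simulated data in which few genes changed, and only in D8 EGCG BAT cells, unlike the real data. It therefore gives no error rate for them. Alternatives were the pseudocount, the filter, scaling by median ratio or quantiles, BAT libraries alone, all 12 BAT libraries with a table term, a replicate block and leaving out each library.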

Additional observations from a re-analysis of the deposited data

Results flagged for a closer look

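The interaction differed between BAT and WAT cells, by a test of the difference itself in limma with Benjamini-Hochberg adjustment, in 3283 genes. Of the 30 named genes, 17 were among them, against 23.3% of all genes tested. Named genes were chosen by the size of their BAT differences, and the BAT interaction is part of the tested difference. A raised count is therefore partly built in and is no separate evidence. Each value here is the BAT interaction minus the WAT interaction on the log2 scale. Among reversed genes it was 2.48 for Slc7a11, 1.76 for Peg10, 2.10 for Elovl4, 2.13 for Tgfb2, -3.11 for 8430408G22Rik and -1.26 for Cox4i2. Among differences that appeared it was 3.58 for Prl2c2, 1.35 for Igfbp5, -3.26 for Aspg and -3.27 for Cox7a1. Lims2, which faded, had -1.72. Among differences that grew, Ptgs2 had 2.34, Prl2c3 2.89 and Rbp4 -1.27. Among those that shrank, Isg15 had 1.26, Actg2 -2.65 and Cnn1 -1.83. For Ptgs2, Cnn1 and Tgfb2 the WAT interaction was 0.06, 0.09 and -0.06 and was not called. For Slc7a11 it was -0.49 (adjusted p = 0.0524).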

How the results depend on the processing

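With a pseudocount of 0.1 in place of 1, 889 differences appeared, 140 faded and 54 shrank, and 141 reversed by at least 1.5-fold on both days, since low genes weigh more on that scale. The Elovl3 interaction was then 0.679 (adjusted p = 0.373). A fit of the 12 BAT libraries of both tables gave 359 that appeared and 32 that faded. No other main count moved by more than 1.5 times, and the interactions of the named genes kept their sign in the alternatives run. The balance of all called interactions did turn with scaling, from 4897 higher and 2906 lower to 3535 and 3636 under median-ratio scaling. Leaving out 1 library or replicate gave 6847 to 8011 called interactions, 4273 to 5014 higher and 2574 to 2997 lower, 588 to 945 reversed, 450 to 728 appeared, 39 to 75 faded, 464 to 573 grown and 22 to 38 shrunken differences. It gave 5481 to 7064 calls on D4, 9397 to 10330 on D8 and 2528 to 2929 between depots. The replicate numbers did not pair the samples (correlations of -0.002 to 0.012 between groups), and with a replicate block 7748 interactions were called and 802 genes reversed. Depth limits genes such as Ucp1 that had no read in a group.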

Other observations

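Among 14 targets of YAP and TGF-beta, 12 were higher on each day, and 7 interactions were called higher and 2 lower. Over all genes tested, 27.9% were higher on D4 and 46.5% on D8. The interaction was called higher in 34.7% of all genes and lower in 20.6%. Pmepa1, a feedback inhibitor of TGF-beta signalling, grew from 0.75 to 2.27. Of 14 progenitor genes, 7 interactions were called higher and 3 lower, and the hyaluronan receptor Cd44 grew from 0.80 to 2.65 while Ly6a, which encodes SCA-1, appeared as lower at -1.03. Tnc, tenascin C, grew from 0.96 to 2.85 and Eln, elastin, from -0.97 to -3.05. Of the 22 matrix genes, 8 were higher and 11 lower on D4, and 8 higher and 10 lower on D8. Their interactions were called higher in 9 and lower in 6, not far from the shares over all genes.

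The remaining lists were mixed, and are to be read beside the 34.7% of all genes called higher and 20.6% called lower. Lysosome and autophagy genes had 10 interactions called higher and 6 lower of 20, with Gabarapl1, an autophagosome protein, reversing from 0.45 to -0.88. Targets of p53 and arrest genes had 6 and 6 of 15, and Cdkn2a, the INK4A and ARF gene, faded from -1.28 to -0.07. ATF4 and unfolded protein response genes had 8 and 7 of 22, and immediate early genes 4 and 0 of 16. The p53 and ATF4 counts called higher lay near the share over all genes. Among markers of other cells, endothelial genes had 1 higher and 5 lower of 14, and their summed level was 27.5 to 34.6 FPKM in D4 control, 68.2 to 75.2 in D4 EGCG, 37.9 to 40.2 in D8 control and 61.6 to 65.8 in D8 EGCG libraries. Skeletal muscle genes had 0 and 6 of 12, among them Mb, myoglobin, with means of 54.8 and 3.29 FPKM in D8 control and EGCG cells. Mesothelial genes had 1 and 0 of 8, Schwann and neural genes 1 and 1 of 9, and T, B and mast cell genes 0 and 2 of 2. The part of these cells in the results was not tested.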
